A study of Mus musculus with 16 samples.

Results

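Mouse embryonic fibroblasts were followed by RNA-seq while a cocktail of 9 factors, M9, was applied to turn them toward a neural stem cell-like state, and the comparison described here is the last step of that treatment: day 12 (D12) against day 8 (D8). It rests on 6 of the 16 libraries of the series, 3 per day, chosen by their labels. Replicate 1 of each day belongs to batch 1 and replicates 2 and 3 belong to batch 2. The cells on both days were tdMEFs of a mixed 129xC57BL6 background, fibroblasts in which a Cre recombinase driven by Fsp1 (the gene S100a4) had switched on tdTomato from the ROSA26 locus, so the starting population was defined by the past activity of one fibroblast promoter. Both days were in M9 medium at 5% O2, so every difference below is between treated cells and not against untreated ones. The medium held no serum and carried N2, B27 without vitamin A and BSA. Its 9 factors were CHIR99021, LDN193189, A83-01, Hh-Ag1.5, retinoic acid, SMER28, RG108, Parnate and bFGF. Besides these, 3 groups are used only to place the step: untreated tdMEFs in serum medium at 20% O2 (D0), cells on day 4 of M9 (D4), and the established induced lines (ciNSLC). The labels do not say whether replicates were separate cultures, so the p-values measure the spread between these libraries, which may be technical in part.

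As background, CHIR99021 inhibits GSK3 and so activates Wnt signalling, LDN193189 and A83-01 block the receptors of BMP and TGF-beta, Hh-Ag1.5 activates Hedgehog signalling through Smoothened, and bFGF drives the ERK kinases. Retinoic acid acts through nuclear receptors whose targets include the enzymes and binding proteins that limit it. SMER28 raises autophagy, RG108 inhibits DNA methyltransferases and Parnate inhibits the histone demethylase LSD1. Fibroblasts are held in their state by mesenchymal transcription factors and an actin and matrix programme, whereas neural stem cells express Sox2, Pax6, Nestin, Fabp7 and, in ventral territories, Olig2.

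The 6 libraries held between 31653928 and 45725028 counts over genes, within the 29413932 to 55471129 of the whole series. Mitochondrial rRNA took 49.7%, 17.3% and 26.4% of the counts on D8 and 33.2%, 28.4% and 27.2% on D12, in the order of replicates 1, 2 and 3, which is the order used for all values below. The batches stood further apart than the days: the first principal component (52.1% of the variance) separated batch 1 from batch 2 and the second (27.8%) separated D8 from D12. Replicates 2 and 3 were close to each other, with a biological coefficient of variation of 0.187 on D8 and 0.0716 on D12, against 0.438 to 0.468 for pairs across batches, but each pair differed by more than counting noise. S100a4, the gene whose promoter marked the starting cells, was at 14.2, 22.6 and 9.77 CPM on D8 and 16.6, 11.7 and 12.2 on D12, with the days overlapping. Of the defining neural stem cell markers, Sox2 was at 3.96, 1.19 and 3.02 CPM on D8 and 12.2, 1.52 and 2.79 on D12. Levels are TMM-scaled CPM, gene counts over the scaled library total, and 3 counts, the most that a count of 0 allows, correspond to 0.0587 to 0.0929 CPM in these libraries.

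Between D8 and D12, 936 of 15643 genes tested (5.98%) passed an adjusted p of 0.05 in edgeR's quasi-likelihood test with batch as a block. Of these, 464 (2.97% of the genes tested) were higher on D12 and 472 (3.02%) were lower. These shares are the background for each count of list members called below. The lists and their members were chosen with earlier results of these data known. Some lists hold genes also named below for their large change, such as Olig2, Aldh1a3, Dhrs3, Meox1 and Lyz2. A list share above the background may therefore be built in to some extent, and no list was tested as a set. At an unadjusted p of 0.05 the count was 3455 genes (22.1%), and in 5603 genes (35.8%) the days did not overlap within either batch and moved in the same direction. That 35.8% is the background for each gene below whose days are said to be apart. The share of genes apart across all 6 libraries was not computed. With the replicate number in place of batch as the block, 415 genes passed, 221 higher and 194 lower, of which 409 were among the 936. The count rests on the batch block and on the closeness of the batch 2 replicates: without any block 6 genes passed, and with replicates 2 and 3 of each day summed into 1 pair, a fit added after seeing the data, 3 genes passed, Aldh1a3, Meox1 and Npr3. Leaving out 1 library gave 74 genes without D8 replicate 2, 124 without D8 replicate 3, 328 without D12 replicate 2 and 290 without D12 replicate 3, against 3505 and 3527 without the batch 1 library of D8 or D12. Batch 1 has 1 library a day, so without either one the batch term takes up the other. Those fits compare the days within batch 2 only and are not further checks. No gene among the 936 changed sign in any of these fits. The text below names 110 called genes, of which 75 passed with the replicate block and 23 passed in every fit that left out 1 library. All 110 passed in the fits without a batch 1 library, so the 23 were set by the fits without a batch 2 library. These 23 were Aldh1a3, Meox1, Ccl11, Rdh10, Tgfbi, Etv5, Egr1, Egr2, Snap25, Cx3cl1 and Ccl2, which were higher on D12, and Npr3, Dpp4, Npy2r, Lcp1, Cldn11, Bex1, Lox, Fap, Myl9, Tgm2, Cdon and Tgfb2, which were lower.

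Within batch 2 alone 3476 of 16090 genes (21.6%) passed, 1586 higher (9.86%) and 1890 lower (11.7%), and 930 of them were among the 936. Of those 3476 genes, 62.6% moved in the same direction in the single pair of batch 1 libraries, against 53.1% of all 16090 genes. Over genes with an absolute log2 change of at least 1 in batch 2 the share was 66.2% of 1759. The direction of a gene's change in batch 1 therefore often differed from that in batch 2.

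**Figure D1:**
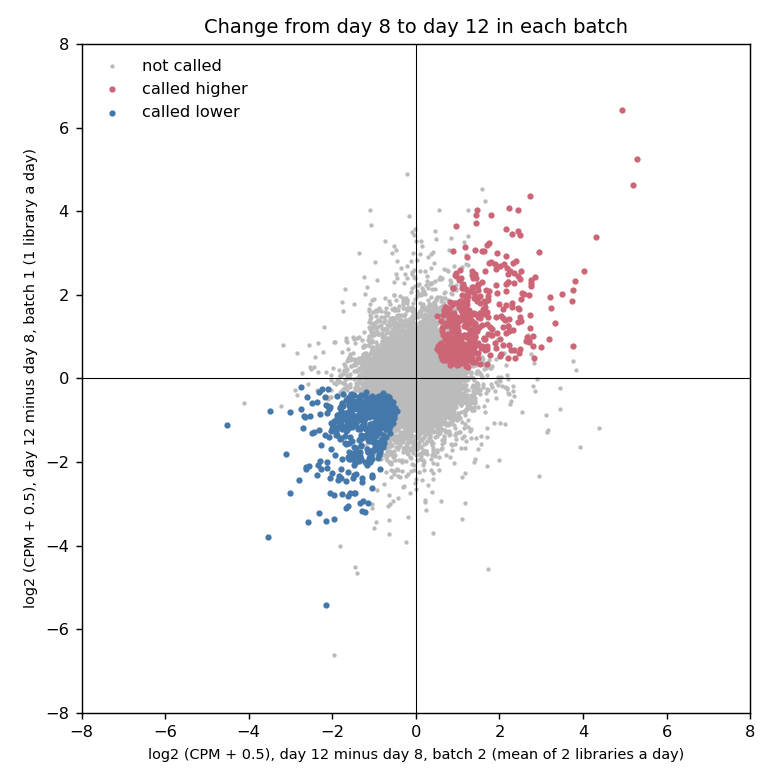
Change of every gene tested from day 8 to day 12 in batch 2 (x axis, mean of 2 libraries a day) and batch 1 (y axis, 1 library a day), as differences of log2(CPM + 0.5); genes called higher are red, called lower blue, others grey. The called genes lie in the quadrants where both batches moved the same way. Grey points are all genes not called, in every quadrant, and those in the other quadrants moved in opposite directions in the batches. Colour does not show the interaction test.

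Among called genes with a gene symbol other than a clone name, whose days did not overlap within either batch and whose higher day had a mean of at least 5 CPM, the 12 with the largest rise included genes of retinoid synthesis, mesoderm patterning, chemokine signalling and the neural lineage. Aldh1a3 (chr7:73535778-73572403, mm9), which oxidises retinaldehyde to retinoic acid, was at 1.70, 1.96 and 1.60 CPM on D8 and 83.5, 96.97 and 81.9 on D12. The 3 libraries of each day lay close together and far from the other day in both batches, a log2 change of 5.64 ± 0.17 (SE; adjusted p = 8.01e-05), and this gene had the lowest adjusted p of the comparison. Meox1 (chr11:101738824-101755688, mm9), a homeobox factor of somites and other mesoderm, was at 0.650, 0.430 and 0.135 CPM on D8 and 28.04, 28.8 and 26.4 on D12. It rose in all 3 D12 libraries to nearly the same level, with a log2 change of 6.16 ± 0.39 (SE; adjusted p = 0.00291). Ccl11, the chemokine eotaxin, was at 1.61, 8.33 and 5.96 CPM on D8 and 181, 237 and 226 on D12, with no overlap across the batches either. Ccl11 gave a log2 change of 5.54 ± 0.41 (SE; adjusted p = 0.00329).

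Several of the risen genes are expressed in neural cells and stood higher in batch 1 on both days. Olig2, the basic helix-loop-helix factor that specifies oligodendrocytes and motor neurons, was at 2.35, 0.196 and 0.474 CPM on D8 and 46.1, 2.74 and 5.76 on D12. Every D12 library exceeded every D8 library, but the batch 1 value on D8 nearly reached the lowest D12 value of batch 2, and the fit gave a log2 change of 3.95 ± 0.42 (SE; adjusted p = 0.00558). Trim9, a brain-enriched ubiquitin ligase, was at 11.6, 1.08 and 1.44 CPM on D8 and 126, 25.8 and 45.3 on D12. Trim9 gave a log2 change of 4.31 ± 0.38 (SE; adjusted p = 0.00388). Grm5, a metabotropic glutamate receptor, was at 3.65, 0.176 and 0.0902 CPM on D8 and 26.96, 1.87 and 2.67 on D12. Grm5 gave a log2 change of 3.46 ± 0.35 (SE; adjusted p = 0.00512). Gpr83, a G protein-coupled receptor found in brain, was at 18.5, 0.626 and 0.812 CPM on D8 and 81.7, 15.1 and 17.1 on D12. Gpr83 gave a log2 change of 3.58 ± 0.49 (SE; adjusted p = 0.0109). In Grm5 and Gpr83 the batch 1 library of D8 lay above the D12 libraries of batch 2, so the days separated only within each batch. St8sia1, the synthase of ganglioside GD3, was at 12.9, 2.11 and 2.10 CPM on D8 and 66.95, 30.5 and 42.4 on D12. St8sia1 gave a log2 change of 3.52 ± 0.38 (SE; adjusted p = 0.00611). Fam5b, also called Brinp2 and a neural gene of the BRINP family, was at 0.588, 0 and 0.0677 CPM on D8 and 11.9, 1.49 and 3.69 on D12. Fam5b gave a log2 change of 5.13 ± 0.68 (SE; adjusted p = 0.0102). D8 replicate 2 had no Fam5b count, so the fitted change depends on the prior count.

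Among the remaining 3 of these 12 risen genes, Tslp, an epithelial-type cytokine, was at 0.836, 0.802 and 0.812 CPM on D8 and 4.33, 15.3 and 18.96 on D12, with a log2 change of 3.80 ± 0.44 (SE; adjusted p = 0.00689). Scml4, a relative of the Polycomb protein Scm, was at 2.94, 0.0978 and 0.384 CPM on D8 and 19.9, 12.7 and 9.99 on D12. Scml4 gave a log2 change of 4.40 ± 0.67 (SE; adjusted p = 0.0151). Thbs4, a thrombospondin of the extracellular matrix, was at 0.464, 0.861 and 2.19 CPM on D8 and 7.38, 16.6 and 12.2 on D12. Thbs4 gave a log2 change of 3.44 ± 0.40 (SE; adjusted p = 0.00706). These 3 were named for days that did not overlap within either batch, and their days did not overlap across the batches either. Of the 12 risen genes, all 12 passed with the replicate block and 3 passed without D8 replicate 2 (Aldh1a3, Meox1 and Ccl11).

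**Figure D2:**
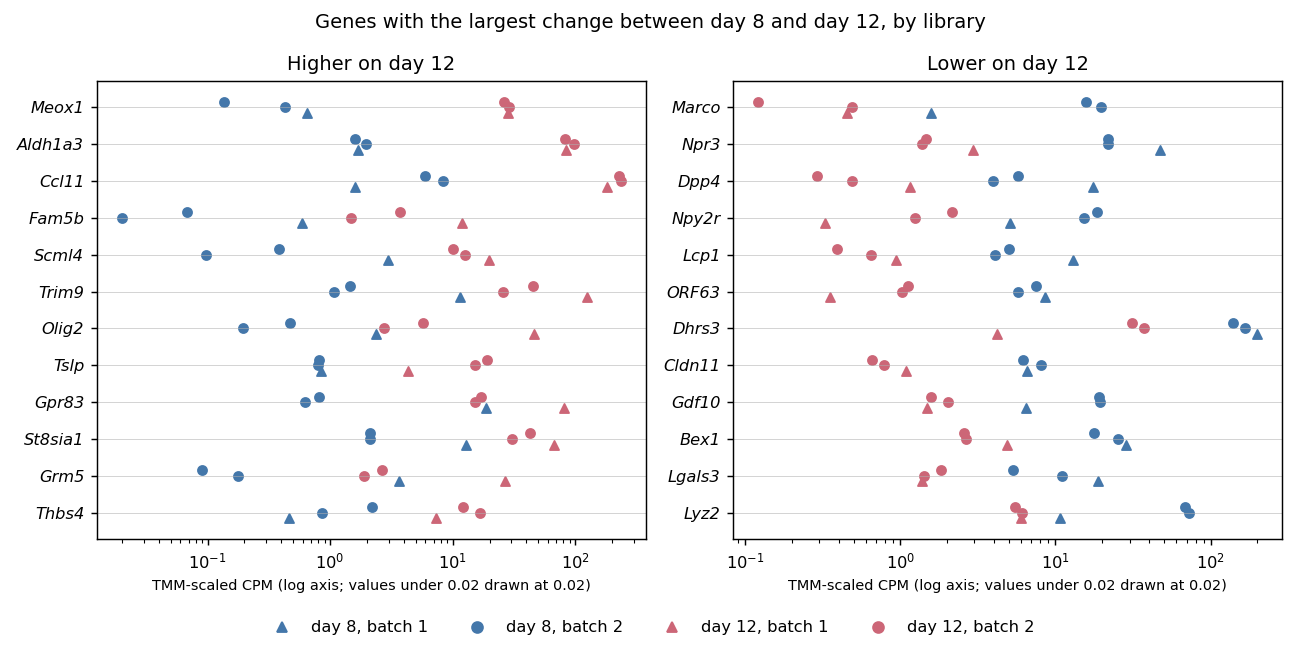
TMM-scaled CPM on a log axis for the 12 genes with the largest rise (left) and the 12 with the largest fall (right) among called genes whose days did not overlap within either batch and whose higher day had a mean of at least 5 CPM, 1 symbol per library, day 8 in blue and day 12 in red, batch 1 as triangles and batch 2 as circles. The 3 symbols of Aldh1a3 lie close together on each day and those of Meox1 on day 12, whereas Olig2, Trim9 and Grm5 stand higher in batch 1 on both days.

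By the same rule, the 12 genes with the largest fall included receptors, surface proteins and genes of macrophages. Npr3 (chr15:11769651-11835429, mm9), the clearance receptor of natriuretic peptides, was at 47.4, 21.7 and 21.7 CPM on D8 and 2.92, 1.38 and 1.46 on D12. All 3 D12 libraries lay far below all D8 libraries, with a log2 change of -3.96 ± 0.15 (SE; adjusted p = 0.000219). Dpp4, a surface dipeptidyl peptidase that marks a class of fibroblasts, was at 17.5, 3.97 and 5.73 CPM on D8 and 1.16, 0.488 and 0.292 on D12. Dpp4 gave a log2 change of -3.74 ± 0.30 (SE; adjusted p = 0.00345). Npy2r, a receptor of neuropeptide Y, was at 5.08, 15.2 and 18.5 CPM on D8 and 0.327, 1.25 and 2.16 on D12. Npy2r gave a log2 change of -3.46 ± 0.29 (SE; adjusted p = 0.00387). Bex1, a small brain-expressed protein encoded on chromosome X, was at 28.3, 25.1 and 17.7 CPM on D8 and 4.86, 2.63 and 2.58 on D12. Bex1 gave a log2 change of -2.86 ± 0.21 (SE; adjusted p = 0.00329). Days apart within each batch were a condition for naming these 4 genes, and their days did not overlap across the batches either.

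Gdf10, a secreted member of the TGF-beta superfamily, was at 6.47, 19.5 and 19.1 CPM on D8 and 1.49, 2.04 and 1.58 on D12. Gdf10 gave a log2 change of -3.00 ± 0.31 (SE; adjusted p = 0.00516). Cldn11, a tight junction claudin of myelin, was at 6.56, 8.02 and 6.21 CPM on D8 and 1.08, 0.787 and 0.656 on D12. Cldn11 gave a log2 change of -3.05 ± 0.27 (SE; adjusted p = 0.00388). ORF63 was at 8.51, 5.69 and 7.49 CPM on D8 and 0.352, 1.03 and 1.12 on D12. ORF63 gave a log2 change of -3.17 ± 0.43 (SE; adjusted p = 0.0102). Dhrs3, a reductase that returns retinaldehyde to retinol, was at 200.5, 166 and 139.7 CPM on D8 and 4.18, 37.1 and 31.3 on D12. Dhrs3 gave a log2 change of -3.15 ± 0.68 (SE; adjusted p = 0.0442, or 0.109 with the replicate number as block). In Dhrs3 the batch 1 library of D12 was far below the others, and the change differed between batches (batch by day interaction, log2 difference -3.42, adjusted p = 0.00168).

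The other 4 of the 12 are genes known from macrophages, of which Lgals3 is also expressed in fibroblasts. Marco, a scavenger receptor, was at 1.58, 19.6 and 15.7 CPM on D8 and 0.453, 0.488 and 0.121 on D12. Marco gave a log2 change of -4.63 ± 0.88 (SE; adjusted p = 0.0301, or 0.079 with the replicate number as block). Lyz2, a lysozyme whose reads may be shared with its near-identical copy Lyz1, was at 10.8, 72.5 and 68.1 CPM on D8 and 6.02, 6.11 and 5.49 on D12. Lyz2 gave a log2 change of -2.74 ± 0.56 (SE; adjusted p = 0.037, or 0.0979 with the replicate number as block). Lcp1, the actin bundler L-plastin, was at 12.9, 4.05 and 5.03 CPM on D8 and 0.931, 0.651 and 0.389 on D12. Lcp1 gave a log2 change of -3.36 ± 0.31 (SE; adjusted p = 0.00388). Lgals3, galectin-3, was at 18.8, 11.03 and 5.33 CPM on D8 and 1.38, 1.41 and 1.82 on D12. Lgals3 gave a log2 change of -2.80 ± 0.41 (SE; adjusted p = 0.0138). These 4 genes did not move as one group. On D8 Marco and Lyz2 were lowest in batch 1, whereas Lcp1 and Lgals3 were highest there. The fall of Marco and Lyz2 was larger in batch 2. Their log2 differences between batches were 4.09 and 2.76, both past the threshold of the batch by day interaction test. The summed level of a macrophage marker list was at 23.06, 94.6 and 93.95 CPM on D8 and 12.64, 14.54 and 14.88 CPM on D12. This list holds Lyz2, which was named above for its fall in these same libraries. Lyz2 alone gave 10.8, 72.5 and 68.1 CPM of the D8 sums, so the sum in large part restates that gene. In that list 5 of 11 genes tested passed, Lyz2 among them, all lower, beside 3.02% of all genes, with a median log2 change of -2.05. Csf1r, the receptor that macrophages need, was at 0.402, 1.21 and 1.69 CPM on D8 and 0.0755, 0.190 and 0.267 on D12. Csf1r gave a log2 change of -2.58 ± 0.42 (SE; adjusted p = 0.0178). C1qb and C1qc, chains of complement C1q, gave log2 -2.30 ± 0.44, adjusted p = 0.0311, 0.0686 with the replicate block, and log2 -2.04 ± 0.38, adjusted p = 0.0276, 0.0805 with the replicate block. Tyrobp, an adaptor of myeloid receptors, was at 1.11, 1.35 and 1.13 CPM on D8 and 0.201, 0 and 0.0243 on D12 and so at 0 in 1 of the D12 libraries, with a log2 change of -4.14 ± 0.80 (SE; adjusted p = 0.0316, or 0.0704 with the replicate number as block). None of the 5 passed without D8 replicate 2 and 1 of them, Csf1r, passed with the replicate block. In bulk RNA, fewer cells of a type and less RNA per cell cannot be told apart, and the part of such cells in the fall of the other genes was not tested. Of the 12 fallen genes, 9 passed with the replicate block and 6 without D8 replicate 2.

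The promoters of the 2 risen and the 2 fallen genes with the lowest p among those with an entry are printed as examples of sequence. Aldh1a3 and Meox1, which rose more, are not among them. RefSeq promoter entries (build GRCm38.p6, 250 bases before to 50 after the annotated start) were found for 16 of the 24 genes, and the 4 are Trim9 (chr12:70347565-70347864, minus strand), Olig2 (chr16:91225300-91225599, plus strand), Npr3 (chr15:11907322-11907621, minus strand) and Bex1 (chrX:136215464-136215763, minus strand). Capitals mark a match on either strand to one of 4 short motifs: AGGTCA, a nuclear receptor core; GGAAGT, an Ets core; GGAATG, a TEAD core; and TGANTCA, an AP-1 core.
Trim9: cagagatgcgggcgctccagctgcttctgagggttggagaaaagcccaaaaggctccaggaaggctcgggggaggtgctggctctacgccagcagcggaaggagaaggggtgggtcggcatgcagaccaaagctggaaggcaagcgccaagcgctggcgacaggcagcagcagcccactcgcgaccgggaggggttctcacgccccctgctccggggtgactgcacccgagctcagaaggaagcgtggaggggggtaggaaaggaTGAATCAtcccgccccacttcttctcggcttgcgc
Olig2: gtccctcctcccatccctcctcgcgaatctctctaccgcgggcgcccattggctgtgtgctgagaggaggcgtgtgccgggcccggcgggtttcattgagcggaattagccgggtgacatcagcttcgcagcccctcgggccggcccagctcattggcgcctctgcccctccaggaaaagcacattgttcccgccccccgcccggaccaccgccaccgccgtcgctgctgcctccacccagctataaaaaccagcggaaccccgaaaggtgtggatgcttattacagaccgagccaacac
Npr3: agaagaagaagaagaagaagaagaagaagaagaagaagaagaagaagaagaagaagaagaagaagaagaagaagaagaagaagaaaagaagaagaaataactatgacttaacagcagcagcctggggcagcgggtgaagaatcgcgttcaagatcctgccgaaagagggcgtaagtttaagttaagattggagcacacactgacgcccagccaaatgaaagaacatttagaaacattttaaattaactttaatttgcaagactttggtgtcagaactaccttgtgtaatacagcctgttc
Bex1: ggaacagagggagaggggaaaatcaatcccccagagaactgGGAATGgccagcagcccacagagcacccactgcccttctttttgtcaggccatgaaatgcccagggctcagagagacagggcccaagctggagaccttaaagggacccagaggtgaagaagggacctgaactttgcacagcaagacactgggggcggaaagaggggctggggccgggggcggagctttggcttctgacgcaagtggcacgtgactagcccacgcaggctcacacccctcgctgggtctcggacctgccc

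In these windows TGANTCA occurred in 1 place, in Trim9, 16 bases after the start, and GGAATG in 1 place, in Bex1, 209 bases before it, and no letters of AGGTCA or GGAAGT were found in the 4 windows. Over 32851 RefSeq promoters of this length AGGTCA occurred in 16.3%, GGAAGT in 23.8%, GGAATG in 14.7% and TGANTCA in 7.81%, so these matches are descriptions of single windows and say nothing of factor binding. The windows differed more in base composition. Trim9 and Olig2 held 19 and 25 CpG pairs at a GC content of 65.0% each, Bex1 held 8 at 61.3% and Npr3, which opens with a run of GAA repeats, held 6 at 39.0%. The median over all promoters was 7 CpG pairs and 52.7% GC.

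Genes of the oligodendrocyte lineage rose and a myelin gene fell. Of 10 list members tested, 5 were called higher and 1 lower, beside 2.97% and 3.02% of all genes, with a median log2 change of 0.92 beside 0.004 over all 15643 genes. The median was 1.80 in the batch 1 pair and 0.56 and 0.54 in D12 replicates 2 and 3, and the batch by day interaction passed in 0 members. Olig1, the partner of Olig2, was at 11.3, 1.02 and 1.47 CPM on D8 and 127, 5.94 and 13.9 on D12. Olig1 gave a log2 change of 3.19 ± 0.35 (SE; adjusted p = 0.00645). Sox8, a SoxE factor of glia, was at 8.98, 1.31 and 1.22 CPM on D8 and 55.5, 6.16 and 10.3 on D12. Sox8 gave a log2 change of 2.68 ± 0.23 (SE; adjusted p = 0.00387). Bcas1, a protein of early myelinating cells, was at 0.217, 0.0196 and 0.0677 CPM on D8 and 8.46, 0.434 and 0.705 on D12. Bcas1 gave a log2 change of 4.55 ± 0.56 (SE; adjusted p = 0.00806). In these 3 genes and in Olig2 the batch 1 library exceeded the batch 2 libraries of its day, and in Olig1 and Sox8 the D8 library of batch 1 reached the D12 values of batch 2. Mbp, myelin basic protein, was at 2.72, 2.03 and 0.857 CPM on D8 and 0.302, 0.434 and 0.292 on D12, lower in every D12 library, with a log2 change of -2.37 ± 0.49 (SE; adjusted p = 0.0395, or 0.0617 with the replicate number as block). Pdgfra, the growth factor receptor of oligodendrocyte precursors and of fibroblasts, did not pass, at 91.1, 125 and 112 CPM on D8 and 88.4, 116 and 104 on D12. Sox10, the SoxE factor that drives myelination, was at 0.217, 0.0978 and 0.113 CPM on D8 and 0.302, 0.136 and 0.0972 on D12, too low to be tested. Of the 6 called members 4 passed with the replicate block and 0 without D8 replicate 2.

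Markers of neural stem cells moved unevenly. In the list 6 of 19 members tested were called higher and 1 lower, beside 2.97% and 3.02% of all genes, with a median log2 change of 0.29. Fabp7, a fatty acid binding protein of radial glia, was at 228, 23.8 and 30.03 CPM on D8 and 852, 118 and 207 on D12, higher within both batches, with a log2 change of 2.37 ± 0.28 (SE; adjusted p = 0.00723). Slc1a3, the glutamate transporter GLAST, was at 59.9, 18.1 and 25.8 CPM on D8 and 164, 71.6 and 120.4 on D12. Slc1a3 gave a log2 change of 1.91 ± 0.27 (SE; adjusted p = 0.0118). Sox9, a SoxE factor of neural stem cells and cartilage, was at 27.8, 36.5 and 41.8 CPM on D8 and 127, 80.2 and 92.2 on D12, with no overlap. Sox9 gave a log2 change of 1.49 ± 0.24 (SE; adjusted p = 0.0169). Ptprz1, a receptor phosphatase of glial precursors, was at 34.4, 9.62 and 15.7 CPM on D8 and 114, 21.8 and 30.4 on D12. Ptprz1 gave a log2 change of 1.28 ± 0.26 (SE; adjusted p = 0.0357). Nes, the intermediate filament nestin, was at 149, 86.4 and 94.9 CPM on D8 and 199, 165 and 187 on D12. Nes gave a log2 change of 0.78 ± 0.17 (SE; adjusted p = 0.042, or 0.0951 with the replicate number as block). Across the batches, Slc1a3, Sox9 and Nes did not overlap between days, whereas in Fabp7 and Ptprz1 the D8 library of batch 1 exceeded a D12 library of batch 2.

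Prom1, the surface glycoprotein CD133, went the other way, at 25.5, 26.03 and 27.2 CPM on D8 and 10.8, 11.5 and 13.01 on D12, with a log2 change of -1.16 ± 0.14 (SE; adjusted p = 0.00769). The factors that define neural stem cell identity did not pass. Sox2 gave log2 0.59 ± 0.50, adjusted p = 0.551. Pax6 was at 1.92, 3.01 and 3.68 CPM on D8 and 4.08, 2.25 and 4.13 on D12. Pax6 gave a log2 change of 0.31 ± 0.36 (SE; adjusted p = 0.669). In both the batch 1 library was higher on D12 and the batch 2 libraries of the days overlapped. Zic1, a dorsal neural tube factor, was at 23.5, 9.90 and 18.3 CPM on D8 and 31.2, 11.6 and 17.4 on D12. Zic1 gave a log2 change of 0.17 ± 0.27 (SE; adjusted p = 0.773). The median of the list was 0.92 in the batch 1 pair and -0.21 and 0.27 in the D12 replicates 2 and 3 of batch 2. Of the 7 called members 6 passed with the replicate block and 0 without D8 replicate 2.

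Neuronal genes were called in both directions: 1 of 15 members tested was higher and 2 were lower, beside 2.97% and 3.02% of all genes. The list median was a log2 change of 0.39, beside 0.004 over all genes tested. It was 0.65 in the batch 1 pair and -0.02 and 0.33 in D12 replicates 2 and 3. Snap25, a SNARE protein of synaptic vesicle release, was at 0.526, 1.47 and 1.35 CPM on D8 and 6.47, 9.44 and 8.78 on D12, with no overlap. Snap25 gave a log2 change of 2.95 ± 0.26 (SE; adjusted p = 0.00388). Stmn2, a microtubule regulator of growing axons, was at 7.52, 8.55 and 10.2 CPM on D8 and 1.08, 2.04 and 2.46 on D12. Stmn2 gave a log2 change of -2.28 ± 0.25 (SE; adjusted p = 0.00567). Dcx, doublecortin of migrating neuroblasts, was at 5.94, 2.05 and 2.39 CPM on D8 and 2.44, 0.543 and 0.705 on D12. Dcx gave a log2 change of -1.62 ± 0.28 (SE; adjusted p = 0.0216, or 0.0559 with the replicate number as block). Tubb3, neuronal tubulin, was at 2.57, 3.46 and 2.01 CPM on D8 and 2.72, 2.44 and 2.12 on D12 and did not pass (adjusted p = 0.821). The days were apart in all libraries for Snap25 and Stmn2 and within each batch for Dcx. Among astrocyte genes 2 of 12 were higher and 1 was lower. Aldoc, a brain aldolase, was at 36.3, 15.7 and 12.8 CPM on D8 and 87.7, 29.8 and 49.5 on D12. Aldoc gave a log2 change of 1.41 ± 0.21 (SE; adjusted p = 0.0149). Slc1a2, the glutamate transporter GLT-1, was at 22.2, 6.53 and 5.75 CPM on D8 and 35.9, 11.8 and 15.8 on D12. Slc1a2 gave a log2 change of 1.01 ± 0.19 (SE; adjusted p = 0.0273, or 0.0638 with the replicate number as block). Clu, the secreted chaperone clusterin, was at 122, 182 and 142 CPM on D8 and 79.7, 45.4 and 60.8 on D12. Clu gave a log2 change of -1.28 ± 0.25 (SE; adjusted p = 0.032, or 0.0691 with the replicate number as block). Among neural crest and Schwann cell genes 1 of 8 was higher, Ngfr, the low-affinity neurotrophin receptor, at 1.52, 1.66 and 2.35 CPM on D8 and 32.5, 6.73 and 5.98 on D12, with a log2 change of 2.53 ± 0.56 (SE; adjusted p = 0.0476, or 0.103 with the replicate number as block). Pmp22, a peripheral myelin protein, was the 1 lower, at 301, 349 and 435 CPM on D8 and 155, 104 and 105 on D12, with a log2 change of -1.59 ± 0.23 (SE; adjusted p = 0.0136). Of the 3 called neuronal genes 2 passed without D8 replicate 2, and of the called astrocyte and crest genes 0 did.

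Retinoic acid signalling genes split by role: an enzyme of each step that makes retinoic acid was higher on D12, and binding proteins, a receptor and the reductase Dhrs3 were lower. Of 13 members tested 2 were called higher and 5 lower, with a median log2 change of -1.55. Beside Aldh1a3, Rdh10, which oxidises retinol to retinaldehyde, was at 20.7, 31.5 and 28.6 CPM on D8 and 55.6, 74.9 and 71.95 on D12, with no overlap and a log2 change of 1.34 ± 0.12 (SE; adjusted p = 0.00388). Tgm2, a transglutaminase induced by retinoic acid, was at 199.7, 324 and 338 CPM on D8 and 56.7, 125 and 121 on D12. Both batches were lower on D12, from different starting levels, with a log2 change of -1.55 ± 0.15 (SE; adjusted p = 0.00414). Crabp1, a cytosolic retinoic acid binding protein, was at 165, 58.9 and 24.5 CPM on D8 and 36.98, 7.84 and 8.90 on D12. Crabp1 gave a log2 change of -2.26 ± 0.31 (SE; adjusted p = 0.0109). Crabp2 was at 13.5, 21.3 and 9.09 CPM on D8 and 1.59, 4.69 and 4.08 on D12. Crabp2 gave a log2 change of -2.19 ± 0.40 (SE; adjusted p = 0.0269). Crabp2 did not overlap between days, and Crabp1 was apart within each batch only.

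Rarb, the retinoic acid receptor that is itself a target, was at 158, 42.2 and 32.04 CPM on D8 and 19.4, 16.7 and 15.9 on D12. The D8 library of batch 1 was the highest and the 3 D12 libraries were alike, with a log2 change of -1.78 ± 0.37 (SE; adjusted p = 0.0407, or 0.0879 with the replicate number as block). Stra6, the membrane receptor of retinol binding protein, was at 168, 104 and 104 CPM on D8 and 13.5, 57.8 and 46.6 on D12, lower in every D12 library but not past the threshold, with a log2 change of -1.81 ± 0.52 (SE; adjusted p = 0.0948). Of the 7 called members 5 passed with the replicate block, and without D8 replicate 2 the number was 3, Aldh1a3, Rdh10 and Tgm2. In a test of the batch by day interaction the change of 7 of the 13 members differed between batches, beside 8.8% of all genes.

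A group of targets and feedback inhibitors of the FGF and ERK pathway rose. Of 16 list members tested 8 were called higher and 0 lower, beside 2.97% and 3.02% of all genes, with a median log2 change of 0.97. The Ets factor Etv5 was at 84.6, 30.1 and 27.3 CPM on D8 and 251, 70.6 and 81 on D12, with a log2 change of 1.46 ± 0.13 (SE; adjusted p = 0.00388). Etv1 was at 75.8, 53.3 and 64.7 CPM on D8 and 155, 133 and 129 on D12. Etv1 gave a log2 change of 1.11 ± 0.14 (SE; adjusted p = 0.00868). Spry4, a Sprouty inhibitor of receptor signalling, was at 139, 23 and 24.03 CPM on D8 and 444, 222 and 231 on D12. Spry4 gave a log2 change of 2.75 ± 0.33 (SE; adjusted p = 0.008). Spry2 was at 136, 70.98 and 72.1 CPM on D8 and 239.8, 156 and 171 on D12. Spry2 gave a log2 change of 1.07 ± 0.14 (SE; adjusted p = 0.0102). Dusp6, the phosphatase that inactivates ERK, was at 97.8, 15.8 and 15.6 CPM on D8 and 189, 141 and 151 on D12. Dusp6 gave a log2 change of 2.49 ± 0.46 (SE; adjusted p = 0.0273, or 0.0661 with the replicate number as block). Every D12 library exceeded every D8 library in these genes except Etv5, where the D8 library of batch 1 lay above those of batch 2 on D12. In Spry4 and Dusp6 the rise was larger in batch 2 than in batch 1, where the D8 level was already higher. Of the 8 called members 5 passed with the replicate block and 1, Etv5, without D8 replicate 2.

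Among immediate early genes, which respond within minutes to growth factors, 2 of 15 were higher and 1 was lower. Egr1 was at 136, 96.8 and 106 CPM on D8 and 647, 369 and 397 on D12, with no overlap. Egr1 gave a log2 change of 2.03 ± 0.16 (SE; adjusted p = 0.00329). Egr2 was at 1.05, 0.665 and 1.33 CPM on D8 and 8.68, 8.11 and 7.63 on D12. Egr2 gave a log2 change of 3.00 ± 0.30 (SE; adjusted p = 0.00473). Srf, the serum response factor, was at 31.6, 27.9 and 27.8 CPM on D8 and 17.8, 18.8 and 18.7 on D12. Srf gave a log2 change of -0.65 ± 0.13 (SE; adjusted p = 0.0357, or 0.103 with the replicate number as block). Fos and Jun did not pass (Fos log2 0.53 ± 0.17, adjusted p = 0.124; Jun log2 0.13 ± 0.16, adjusted p = 0.683).

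Notch pathway genes were higher in 3 of 12 members and lower in 0, with a median of 0.76. These were the targets Hes1, a repressor that keeps progenitors undifferentiated, at 14.2, 14.4 and 10.1 CPM on D8 and 24.9, 23.1 and 24.2 on D12, with a log2 change of 0.91 ± 0.17 (SE; adjusted p = 0.0283, or 0.0603 with the replicate number as block), Hey1, at 1.89, 1.09 and 0.767 CPM on D8 and 12.03, 2.20 and 4.52 on D12, with a log2 change of 2.14 ± 0.37 (SE; adjusted p = 0.0216, or 0.0521 with the replicate number as block), and the feedback inhibitor Nrarp, at 0.402, 0.235 and 0.316 CPM on D8 and 1.64, 1.33 and 1.12 on D12, with a log2 change of 2.11 ± 0.35 (SE; adjusted p = 0.0201, or 0.0624 with the replicate number as block). The days did not overlap in any of the 3, and none passed with the replicate block or without D8 replicate 2. Wnt targets were called lower in 3 of 12 members and higher in 0, with a median of -0.80. The median was -0.30 in batch 1 and -0.85 and -0.79 in D12 replicates 2 and 3. The change of 5 of the 12 members differed between batches, beside 8.8% of all genes. The summed level of the Wnt list fell in batch 1, from 1564 CPM on D8 to 1073 on D12. In batch 2 that sum rose, from 545.7 and 643.7 CPM on D8 to 967.8 and 1036 on D12. Apcdd1, a secreted Wnt inhibitor, was at 9.66, 14.8 and 18.1 CPM on D8 and 3.83, 3.55 and 4.52 on D12. Apcdd1 gave a log2 change of -1.79 ± 0.23 (SE; adjusted p = 0.00917). Axin2, the scaffold of the beta-catenin destruction complex and a general target, was at 15.8, 37.5 and 35.9 CPM on D8 and 10.04, 6.76 and 9.09 on D12. Axin2 gave a log2 change of -1.70 ± 0.33 (SE; adjusted p = 0.0324, or 0.0711 with the replicate number as block). Nkd2, an inhibitor of Dishevelled, was at 4.12, 7.76 and 8.28 CPM on D8 and 2.42, 4.26 and 4.69 on D12. Nkd2 gave a log2 change of -0.81 ± 0.18 (SE; adjusted p = 0.0499, or 0.126 with the replicate number as block). In Axin2 the fall was larger in batch 2 (log2 difference between batches 1.56, adjusted p = 0.0226). Without D8 replicate 2 none of the 3 Wnt targets passed.

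A pair of Hedgehog co-receptors fell, and the target Gli1 moved in opposite directions in the batches. Of 11 members tested 2 were lower and 0 higher. Cdon, a co-receptor of Sonic hedgehog, was at 109, 141 and 200.1 CPM on D8 and 40.4, 50.4 and 45.3 on D12, with no overlap. Cdon gave a log2 change of -1.70 ± 0.19 (SE; adjusted p = 0.00656). Gas1, another co-receptor, was at 86.3, 68.9 and 91.2 CPM on D8 and 53.4, 17.9 and 19.9 on D12. Gas1 gave a log2 change of -1.62 ± 0.30 (SE; adjusted p = 0.0284, or 0.0595 with the replicate number as block). Gli1, the effector that reports pathway activity, was at 2.48, 51.2 and 39.2 CPM on D8 and 8.88, 29.8 and 34.5 on D12, up in batch 1 and down in batch 2, and did not pass (adjusted p = 0.856). The change of 8 of the 11 members differed between batches. BMP pathway genes were lower in 3 of 13 members and higher in 0. Bmp2, a ligand, was at 81.2, 31.9 and 32.99 CPM on D8 and 26.5, 16.4 and 17.99 on D12. Bmp2 gave a log2 change of -1.15 ± 0.18 (SE; adjusted p = 0.0155). Smad6, an inhibitory Smad, was at 3.81, 3.07 and 4.71 CPM on D8 and 1.08, 0.950 and 1.48 on D12. Smad6 gave a log2 change of -1.71 ± 0.31 (SE; adjusted p = 0.0252). Grem1, a secreted BMP antagonist, was at 25.2, 63.3 and 63.4 CPM on D8 and 12.8, 45.1 and 43.1 on D12. Grem1 gave a log2 change of -0.67 ± 0.14 (SE; adjusted p = 0.0424, or 0.109 with the replicate number as block). Id1, a direct BMP target, gave log2 0.34 ± 0.23, adjusted p = 0.444. Without D8 replicate 2, of these called genes Cdon passed.

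The TGF-beta ligands changed in opposite directions. Tgfb2 was at 242, 172 and 203 CPM on D8 and 63.5, 67.6 and 59.7 on D12. Tgfb2 gave a log2 change of -1.68 ± 0.16 (SE; adjusted p = 0.00403). Tgfb3 was at 55, 179.8 and 160.3 CPM on D8 and 15.4, 65.98 and 60.4 on D12. Tgfb3 gave a log2 change of -1.56 ± 0.15 (SE; adjusted p = 0.00403). Tgfb1 was at 12.1, 13.9 and 12.1 CPM on D8 and 15.4, 27.5 and 26.5 on D12. Tgfb1 gave a log2 change of 0.83 ± 0.18 (SE; adjusted p = 0.0483, or 0.105 with the replicate number as block). Tgfbi, a matrix protein induced by TGF-beta, was at 20.7, 52.7 and 44.8 CPM on D8 and 92.1, 156 and 154 on D12. Tgfbi gave a log2 change of 1.84 ± 0.16 (SE; adjusted p = 0.00387). In each of these 4 genes the days separated within both batches. These 2 higher and 2 lower genes are the calls among 12 members tested, and 2 of them, Tgfb2 and Tgfbi, passed without D8 replicate 2. The list as a whole moved in opposite directions in the batches. Its median log2 change was -0.35, with -1.23 in batch 1 and 0.41 and 0.25 in D12 replicates 2 and 3. The change of 5 of the 12 members differed between batches, beside 8.8% of all genes.

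**Figure D3:**
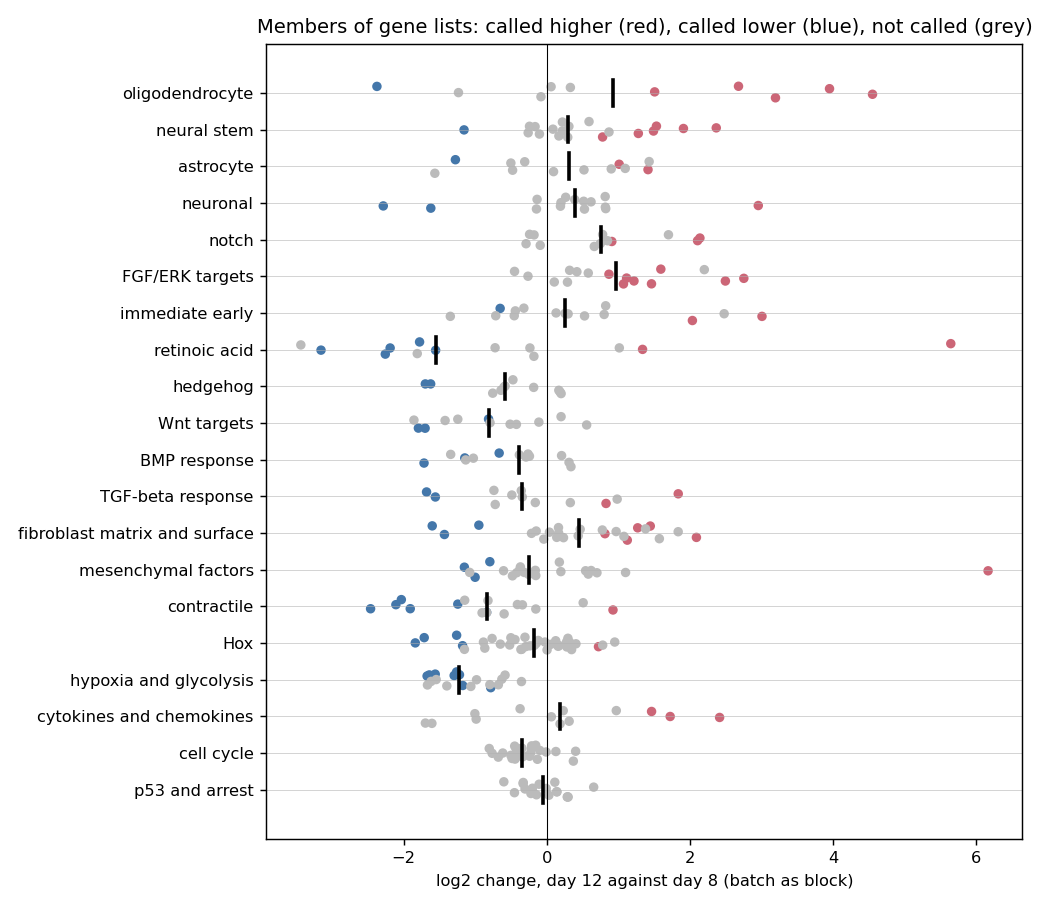
Log2 change from day 8 to day 12 (batch as block) for the tested members of 20 gene lists, 1 point per gene, red where called higher, blue where called lower and grey otherwise, with the list median as a black bar. FGF/ERK and Notch members lie mostly to the right, retinoic acid, contractile and hypoxia members mostly to the left, and the cell cycle and p53 lists hold no called gene.

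Fibroblast matrix and surface genes moved in both directions on this step. Of 24 tested 5 were called higher and 3 lower, with a median log2 change of 0.45. Lum, the collagen-binding proteoglycan lumican, was at 77.7, 229 and 287 CPM on D8 and 646, 839 and 742 on D12. Lum gave a log2 change of 2.09 ± 0.32 (SE; adjusted p = 0.0154). Tnc, the matrix glycoprotein tenascin C of fibroblasts and neural stem cell niches, was at 264, 236 and 232 CPM on D8 and 817, 485 and 506 on D12. Tnc gave a log2 change of 1.27 ± 0.17 (SE; adjusted p = 0.0102). Fn1, fibronectin, was at 348, 1014 and 1211 CPM on D8 and 937, 2328 and 2016 on D12. Fn1 gave a log2 change of 1.12 ± 0.19 (SE; adjusted p = 0.0218, or 0.064 with the replicate number as block). Fbn1, fibrillin-1, was at 356, 339.9 and 386 CPM on D8 and 664, 659 and 574 on D12. Fbn1 gave a log2 change of 0.81 ± 0.15 (SE; adjusted p = 0.0302, or 0.0921 with the replicate number as block). In Lum, Tnc and Fbn1 every D12 library exceeded every D8 library. The lower genes were Lox, the collagen crosslinking oxidase, at 145, 402 and 389.8 CPM on D8 and 41.6, 147 and 132 on D12, with a log2 change of -1.60 ± 0.14 (SE; adjusted p = 0.00388). Fap, a fibroblast surface protease, was at 64.96, 42.9 and 46.3 CPM on D8 and 21.2, 19.1 and 16.1 on D12. Fap gave a log2 change of -1.43 ± 0.14 (SE; adjusted p = 0.00472). Mfap5, a microfibril protein, was the third, at 11.4, 24.9 and 17.1 CPM on D8 and 6.02, 10.01 and 11.4 on D12, with a log2 change of -0.95 ± 0.18 (SE; adjusted p = 0.0317, or 0.0732 with the replicate number as block).

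Col1a1, the main collagen chain of fibroblasts, was higher on D12 in batch 1 and lower in batch 2, at 751, 3390.0 and 3866 CPM on D8 and 2089, 2228 and 2063 on D12, and did not pass (adjusted p = 0.971). The batches differed in 12 of the 24 members, and the list median was 1.32 in batch 1 against 0.14 and 0.03 in the D12 replicates 2 and 3. Of the 8 called members 4 passed with the replicate block and 2, Lox and Fap, without D8 replicate 2.

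Several genes of the contractile actin apparatus fell. Of 16 members 6 were called lower and 1 higher, with a median log2 change of -0.84. The median was -1.37 in batch 1 and -0.47 and -0.51 in D12 replicates 2 and 3. The change of 6 of the 16 members differed between batches, beside 8.8% of all genes. Acta2, smooth muscle actin, was at 1700.0, 662 and 473 CPM on D8 and 250.4, 163 and 165 on D12. Acta2 gave a log2 change of -2.11 ± 0.25 (SE; adjusted p = 0.008). Myl9, a myosin light chain, was at 282, 155 and 135 CPM on D8 and 79.2, 40.05 and 34.6 on D12. Myl9 gave a log2 change of -1.91 ± 0.14 (SE; adjusted p = 0.00329). Lmod1, an actin nucleator of smooth muscle, was at 15.9, 10.7 and 12.6 CPM on D8 and 1.86, 2.60 and 2.60 on D12. Lmod1 gave a log2 change of -2.46 ± 0.25 (SE; adjusted p = 0.00483). Myh11, smooth muscle myosin heavy chain, was at 11.6, 13.8 and 16.4 CPM on D8 and 5.89, 6.43 and 5.18 on D12. Myh11 gave a log2 change of -1.24 ± 0.19 (SE; adjusted p = 0.0155). All D12 libraries lay below all D8 libraries in these 4 genes. Smtn, smoothelin, was the exception, at 17.3, 15.6 and 11.4 CPM on D8 and 30.9, 26.3 and 26.4 on D12, with a log2 change of 0.92 ± 0.16 (SE; adjusted p = 0.0214). Of the 7 called members 5 passed with the replicate block and 2, Myl9 and Lmod1, without D8 replicate 2.

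Mesenchymal transcription factors were lower in 3 of 21 members and higher in 1, the latter being Meox1. Prrx1, a homeobox factor of limb and craniofacial mesenchyme, was at 300.5, 227 and 225 CPM on D8 and 135, 143 and 151 on D12. Prrx1 gave a log2 change of -0.80 ± 0.16 (SE; adjusted p = 0.0355, or 0.0933 with the replicate number as block). Twist2 was at 13.7, 13.7 and 10.5 CPM on D8 and 6.85, 5.70 and 6.37 on D12. Twist2 gave a log2 change of -1.0012 ± 0.17 (SE; adjusted p = 0.0231, or 0.0632 with the replicate number as block). Osr1, a zinc finger factor of connective tissue progenitors, was at 29.5, 36.5 and 43.6 CPM on D8 and 22.1, 14.8 and 13.2 on D12. Osr1 gave a log2 change of -1.15 ± 0.25 (SE; adjusted p = 0.0427, or 0.0898 with the replicate number as block). Twist1 gave log2 -0.31 ± 0.20, adjusted p = 0.42 and did not pass. Among Hox genes, which record position along the body and limb axes, 4 of 35 were lower and 1 higher, beside 3.02% and 2.97% of all genes. The lower genes belong to the 5′ ends of the A and D clusters: Hoxa13 at 6.34, 13.6 and 15.6 CPM on D8 and 2.11, 3.45 and 5.06 on D12, Hoxd12 at 0.774, 4.03 and 3.88 CPM on D8 and 0.176, 1.17 and 1.17 on D12, Hoxd13 at 30.5, 39.1 and 37.8 CPM on D8 and 8.84, 18.9 and 22.6 on D12, and Hoxa11 at 3.31, 6.16 and 5.05 CPM on D8 and 1.28, 1.84 and 2.97 on D12. Their tests gave log2 -1.71 ± 0.21, adjusted p = 0.00859 for Hoxa13, log2 -1.84 ± 0.27, adjusted p = 0.0138 for Hoxd12, log2 -1.18 ± 0.21, adjusted p = 0.025, 0.0557 with the replicate block for Hoxd13, and log2 -1.26 ± 0.26, adjusted p = 0.0396, 0.0873 with the replicate block for Hoxa11. Hoxa13, Hoxd13 and Hoxa11 did not overlap between days, and Hoxd12 was apart within each batch. Hoxb4, nearer the 3′ end of its cluster, was higher, at 5.70, 11.6 and 11.9 CPM on D8 and 8.48, 20.1 and 20.4 on D12, with a log2 change of 0.72 ± 0.14 (SE; adjusted p = 0.0351, or 0.0995 with the replicate number as block). Hox transcripts overlap each other and antisense RNAs, and the sources used here do not say that strand was used in counting, so these values may share reads. Of the 5 called Hox genes 2 passed with the replicate block and 0 without D8 replicate 2, and of the 4 called mesenchymal factors Meox1 passed in each.

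A group of hypoxia-responsive and glycolytic genes fell, with both days kept at 5% O2. Of 19 tested 8 were called lower and 0 higher, beside 3.02% and 2.97% of all genes, with a median log2 change of -1.22. Hk2, hexokinase 2, was at 35.4, 44.3 and 35.9 CPM on D8 and 15.3, 18.5 and 15.6 on D12, with no overlap. Hk2 gave a log2 change of -1.22 ± 0.15 (SE; adjusted p = 0.008). Egln3, the oxygen-sensing hydroxylase PHD3, was at 48.5, 62.02 and 60.1 CPM on D8 and 24.4, 18.8 and 15.1 on D12. Egln3 gave a log2 change of -1.56 ± 0.21 (SE; adjusted p = 0.0102). Slc2a1, the glucose transporter GLUT1, was at 280.5, 158 and 139.6 CPM on D8 and 85.2, 75.2 and 69.8 on D12. Slc2a1 gave a log2 change of -1.26 ± 0.18 (SE; adjusted p = 0.0122). Adm, the peptide adrenomedullin, was at 56.3, 36.4 and 25.2 CPM on D8 and 24.2, 13 and 14.5 on D12. Adm gave a log2 change of -1.17 ± 0.17 (SE; adjusted p = 0.0126). All 3 D12 libraries lay below all D8 libraries in these 4 genes. The list median was -0.46 in batch 1 and -1.19 and -1.41 in D12 replicates 2 and 3. Of the 8 called members 4 passed with the replicate block and 0 without D8 replicate 2.

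Proliferation and p53 genes held no call: 0 of 25 cell cycle genes and 0 of 18 p53 and arrest genes passed, with medians of -0.34 and -0.06. The cell cycle median was 0.23 in batch 1 and -0.38 and -0.74 in D12 replicates 2 and 3, and within batch 2 alone 9 of the 25 genes passed. Mki67, the proliferation antigen, was at 16.2, 95.99 and 136 CPM on D8 and 67.05, 62.7 and 38.5 on D12, up in batch 1 and down in batch 2, with a log2 change of -0.22 ± 0.67 (SE; adjusted p = 0.888). Cdkn2a, the locus of p16 and p19Arf, gave log2 -0.30 ± 0.21, adjusted p = 0.454. The members with the lowest p were Mcm7, a replicative helicase subunit, and Ccnb2, a mitotic cyclin, which did not pass (log2 0.40 ± 0.15, adjusted p = 0.178, and log2 -0.76 ± 0.30, adjusted p = 0.192). Of the p53 targets Plk2 gave log2 0.29 ± 0.13, adjusted p = 0.245 and Zmat3 gave log2 -0.33 ± 0.16, adjusted p = 0.269. Interferon-stimulated genes held 0 calls among 13, where Bst2 gave log2 -1.14 ± 0.30, adjusted p = 0.0765 and Isg15 gave log2 1.07 ± 0.34, adjusted p = 0.124, and the 13 mitochondrial mRNAs held 0, where mt-Nd3 gave log2 -0.26 ± 0.17, adjusted p = 0.431 and mt-Nd6 gave log2 0.33 ± 0.41, adjusted p = 0.696.

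Some secreted signals besides Ccl11 and Tslp were called higher. Of 13 cytokines and chemokines 3 were higher and 0 lower, beside 2.97% and 3.02% of all genes. The list median was a log2 change of 0.18, with -0.08 in batch 1 and -0.11 and -0.06 in D12 replicates 2 and 3. Cx3cl1, the membrane-bound chemokine fractalkine, was at 4.92, 5.54 and 4.26 CPM on D8 and 30, 23.1 and 25.5 on D12. Cx3cl1 gave a log2 change of 2.41 ± 0.17 (SE; adjusted p = 0.00329). Ccl2, a monocyte chemoattractant, was at 108, 176 and 145 CPM on D8 and 314, 415 and 444 on D12. Ccl2 gave a log2 change of 1.46 ± 0.15 (SE; adjusted p = 0.00483). Ccl7 was at 14.1, 44.6 and 24.7 CPM on D8 and 67.8, 94.6 and 94.7 on D12. Ccl7 gave a log2 change of 1.72 ± 0.27 (SE; adjusted p = 0.0157). The days did not overlap in these 3 genes, and all 3 passed with the replicate block and without D8 replicate 2. Of 11 genes of IGF binding, 2 were higher and 0 lower, with a median of -0.06. Igfbp5 was at 316, 649 and 759 CPM on D8 and 1751, 1942 and 1646 on D12. Igfbp5 gave a log2 change of 1.72 ± 0.27 (SE; adjusted p = 0.0166). Igfbp7 was at 104, 205 and 285 CPM on D8 and 254, 744 and 716 on D12. Igfbp7 gave a log2 change of 1.48 ± 0.18 (SE; adjusted p = 0.00855). Both encode secreted binding proteins, and without D8 replicate 2 Igfbp7 passed.

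In the integrated stress and imprinting lists 1 member each passed, a share near the 5.98% of all genes. Chac1, a glutathione-degrading target of the integrated stress response, was at 4.92, 4.79 and 4.29 CPM on D8 and 1.01, 1.44 and 1.56 on D12. Chac1 gave a log2 change of -1.81 ± 0.26 (SE; adjusted p = 0.0118), and was the 1 gene called lower among 16 integrated stress response genes. Rian, a noncoding RNA of the imprinted Dlk1-Meg3 domain that hosts small RNAs, was at 89.9, 101 and 109 CPM on D8 and 124, 277 and 245 on D12. Rian gave a log2 change of 1.03 ± 0.20 (SE; adjusted p = 0.0339, or 0.0764 with the replicate number as block), 1 higher of 16 imprinted genes. Neither passed without D8 replicate 2.

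Some markers of other cell types besides macrophages passed, beside 5.98% of all genes. Krt19, a simple epithelial keratin, was at 42.8, 30.96 and 29.5 CPM on D8 and 4.53, 9.12 and 9.09 on D12. Krt19 gave a log2 change of -2.21 ± 0.31 (SE; adjusted p = 0.0116), 1 lower of 5 epithelial genes tested. Krt18 was at 62.4, 18.4 and 10.7 CPM on D8 and 11.7, 30.96 and 30.1 on D12, down in batch 1 and up in batch 2, with a log2 change of 0.03 ± 0.71 (SE; adjusted p = 0.986). Kdr, an endothelial VEGF receptor, was at 4.05, 4.36 and 3.95 CPM on D8 and 1.38, 0.651 and 0.827 on D12. Kdr gave a log2 change of -2.16 ± 0.30 (SE; adjusted p = 0.0118), 1 lower of 8. In the adipocyte list 2 of 5 were higher and 1 lower: Lpl, lipoprotein lipase, at 8.79, 13.2 and 16.7 CPM on D8 and 31.8, 29.7 and 30.8 on D12, with a log2 change of 1.29 ± 0.21 (SE; adjusted p = 0.0192), Cebpa at 3.10, 2.48 and 2.03 CPM on D8 and 12.03, 3.96 and 5.71 on D12, with a log2 change of 1.39 ± 0.28 (SE; adjusted p = 0.0347, or 0.0778 with the replicate number as block), and Pparg, the master factor of fat cells, at 6.93, 3.23 and 3.18 CPM on D8 and 4.28, 1.17 and 1.41 on D12, with a log2 change of -1.09 ± 0.24 (SE; adjusted p = 0.049, or 0.116 with the replicate number as block). Cartilage, bone and tendon genes held 0 calls among 8 tested, with Fmod at log2 -1.75 ± 0.42, adjusted p = 0.0608 and Scx at log2 2.52 ± 0.62, adjusted p = 0.0624. Skeletal muscle genes held 0 among 3, with Tnnt1 at log2 -1.83 ± 0.46, adjusted p = 0.0677 and Des at log2 -0.66 ± 0.24, adjusted p = 0.169. Of the pluripotency genes 2 of 11 in the table passed the filter on low counts and neither was called: Mycn gave log2 0.79 ± 0.20, adjusted p = 0.0677 and Nanog gave log2 -1.05 ± 0.65, adjusted p = 0.4. Of 14 germline genes that DNA methylation silences, 2 passed that filter: Rec8 gave log2 -1.03 ± 0.30, adjusted p = 0.102 and Tdrd1 gave log2 -0.25 ± 0.50, adjusted p = 0.822. None of the called genes of these lists passed without D8 replicate 2.

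The change from D8 to D12 was not the same in both batches. In a test of the batch by day interaction 1377 of 15643 genes (8.8%) passed, 731 with a higher change in batch 1 (4.67%) and 646 with a lower one (4.13%). Batch 1 has 1 library a day, so the spread in this test comes from batch 2 alone and the lone libraries are assumed to vary like them. Leaving out 1 batch 2 library in turn gave 1063 to 5584 genes. The labels of the batch 1 libraries carry one further code on D8 and a shorter one on D12 whose meaning is not given, so a difference in their handling and the day cannot be told apart in batch 1. The genes with the largest difference moved in opposite directions. Calcb, a calcitonin gene-related peptide, was at 35.6, 0.411 and 0.429 CPM on D8 and 1.03, 2.44 and 2.67 on D12, with a difference of -7.70 ± 0.39 (SE; adjusted p = 0.000299). Sema7a, a membrane semaphorin, was at 6.16, 0.117 and 0.519 CPM on D8 and 2.42, 16.9 and 15.02 on D12, with a difference of -7.02 ± 0.71 (SE; adjusted p = 0.0029). Spp1, the secreted protein osteopontin, was at 1610.0, 287 and 332 CPM on D8 and 318, 2540.0 and 2215 on D12, with a difference of -5.28 ± 0.32 (SE; adjusted p = 0.000769). In these 3 genes the D8 library of batch 1 was high and its D12 library low, while batch 2 went up.

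Olr1, a receptor of oxidised lipoprotein, was at 89.9, 9.58 and 9.002 CPM on D8 and 28.5, 162 and 136 on D12, with a difference of -5.66 ± 0.26 (SE; adjusted p = 0.000299). Tfpi2, a protease inhibitor, was at 0.712, 0.587 and 0.338 CPM on D8 and 0.227, 12.1 and 8.02 on D12, with a difference of -6.05 ± 0.76 (SE; adjusted p = 0.00574). Col15a1, a basement membrane collagen, went the other way, at 0.341, 8.74 and 7.76 CPM on D8 and 24.3, 7.79 and 6.44 on D12, with a difference of 6.37 ± 0.41 (SE; adjusted p = 0.000872). None of these 6 genes was among the 936.

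Set against the step before it, D4 to D8, the late step differed at 206 of 16218 genes (1.27%) in a fit of 9 libraries: the late change was higher at 36 genes (0.222%) and lower at 170 (1.05%). With the replicate number as block the count was 88, and leaving out 1 library gave 37 to 1490. The steps share the D8 libraries, so a high or low D8 value moves them in opposite directions. Of the 6 genes with the largest difference, 5 had a higher mean on D8 than on D4 and D12. Madcam1, an endothelial adhesion molecule, was at 0, 0.305 and 0.152 CPM on D4 and 0.124, 6.65 and 9.72 CPM on D8 and 0.0252, 1.68 and 1.31 on D12, with a late change of -2.43 after an early one of 5.11 (log2 difference -7.53 ± 0.61, SE; adjusted p = 0.00187). Its batch 1 level stayed near the floor on all 3 days. Syt6, a synaptotagmin, was at 1.24, 2.02 and 0.915 CPM on D4 and 36.9, 7.49 and 13.4 CPM on D8 and 5.11, 1.79 and 2.33 on D12, with a late change of -2.54 after an early one of 3.42 (log2 difference -5.96 ± 0.72, SE; adjusted p = 0.00673). ORF63 was at 0.187, 0.611 and 0.763 CPM on D4 before the D8 and D12 values given above, with a late change of -3.25 after an early one of 3.89 (log2 difference -7.14 ± 0.73, SE; adjusted p = 0.00311).

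Fmod, a small proteoglycan of tendon, was at 0.187, 0.468 and 0.508 CPM on D4 and 1.39, 7.43 and 9.14 CPM on D8 and 1.06, 1.90 and 1.43 on D12, with a late change of -1.74 after an early one of 3.78 (log2 difference -5.52 ± 0.66, SE; adjusted p = 0.0065). Lims2, a focal adhesion protein, was at 0.973, 0.713 and 0.941 CPM on D4 and 14.6, 3.42 and 3.29 CPM on D8 and 1.31, 0.624 and 0.899 on D12, with a late change of -2.65 after an early one of 2.66 (log2 difference -5.31 ± 0.64, SE; adjusted p = 0.00673). Fam5b was the 1 of the 6 with the higher late change: it was at 1.39, 0.183 and 0.178 CPM on D4 and gave a late change of 5.20 after an early one of -1.63 (log2 difference 6.83 ± 1.19, SE; adjusted p = 0.0296).

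Placed on the whole course, the called genes followed several paths. Olig2 stood, in mean CPM ± SD, D0 0.0523 ± 0.0739 (n = 2), D4 0.183 ± 0.101 (n = 3), D8 1.01 ± 1.17 (n = 3), D12 18.2 ± 24.2 (n = 3) and ciNSLC 293 ± 65.7 CPM (n = 3), and Fabp7 at D0 1.52 ± 0.733 (n = 2), D4 11.1 ± 13.3 (n = 3), D8 94 ± 116 (n = 3), D12 392 ± 401 (n = 3) and ciNSLC 2795 ± 685 CPM (n = 3), so the means of both increased across the treatment and were highest in the established lines. Etv5 followed the same order, with D0 26.8 ± 14.9 (n = 2), D4 45.2 ± 19.6 (n = 3), D8 47.3 ± 32.3 (n = 3), D12 134 ± 101 (n = 3) and ciNSLC 649.6 ± 232 CPM (n = 3). Aldh1a3 was high on D12 alone among these groups, at D0 1.89 ± 1.31 (n = 2), D4 1.26 ± 0.372 (n = 3), D8 1.75 ± 0.182 (n = 3), D12 87.4 ± 8.29 (n = 3) and ciNSLC 1.84 ± 0.980 CPM (n = 3). Meox1 was high in untreated fibroblasts, low on D4 and D8 and high again on D12, at D0 30.97 ± 0.158 (n = 2), D4 0.0974 ± 0.0546 (n = 3), D8 0.405 ± 0.258 (n = 3), D12 27.7 ± 1.22 (n = 3) and ciNSLC 0.287 ± 0.104 CPM (n = 3). Lum was high in all fibroblast and treated groups and near 0 in the lines, at D0 353 ± 66.5 (n = 2), D4 217 ± 84.2 (n = 3), D8 198 ± 108 (n = 3), D12 742 ± 96.8 (n = 3) and ciNSLC 0.687 ± 0.234 CPM (n = 3). Acta2 was lower on D4 than in untreated cells, higher on D8 and lower on D12, at D0 2338 ± 37.7 (n = 2), D4 184 ± 17.04 (n = 3), D8 945 ± 661 (n = 3), D12 193 ± 49.9 (n = 3) and ciNSLC 4.13 ± 1.67 CPM (n = 3). Rarb and Egln3 had their highest mean on D4 and a lower one on D12, Rarb at D0 2.21 ± 0.799 (n = 2), D4 104 ± 9.93 (n = 3), D8 77.3 ± 69.7 (n = 3), D12 17.4 ± 1.83 (n = 3) and ciNSLC 8.33 ± 4.91 CPM (n = 3), and Egln3 at D0 7.17 ± 5.71 (n = 2), D4 84.7 ± 11.2 (n = 3), D8 56.9 ± 7.34 (n = 3), D12 19.4 ± 4.67 (n = 3) and ciNSLC 11.96 ± 2.53 CPM (n = 3).

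**Figure D4:**
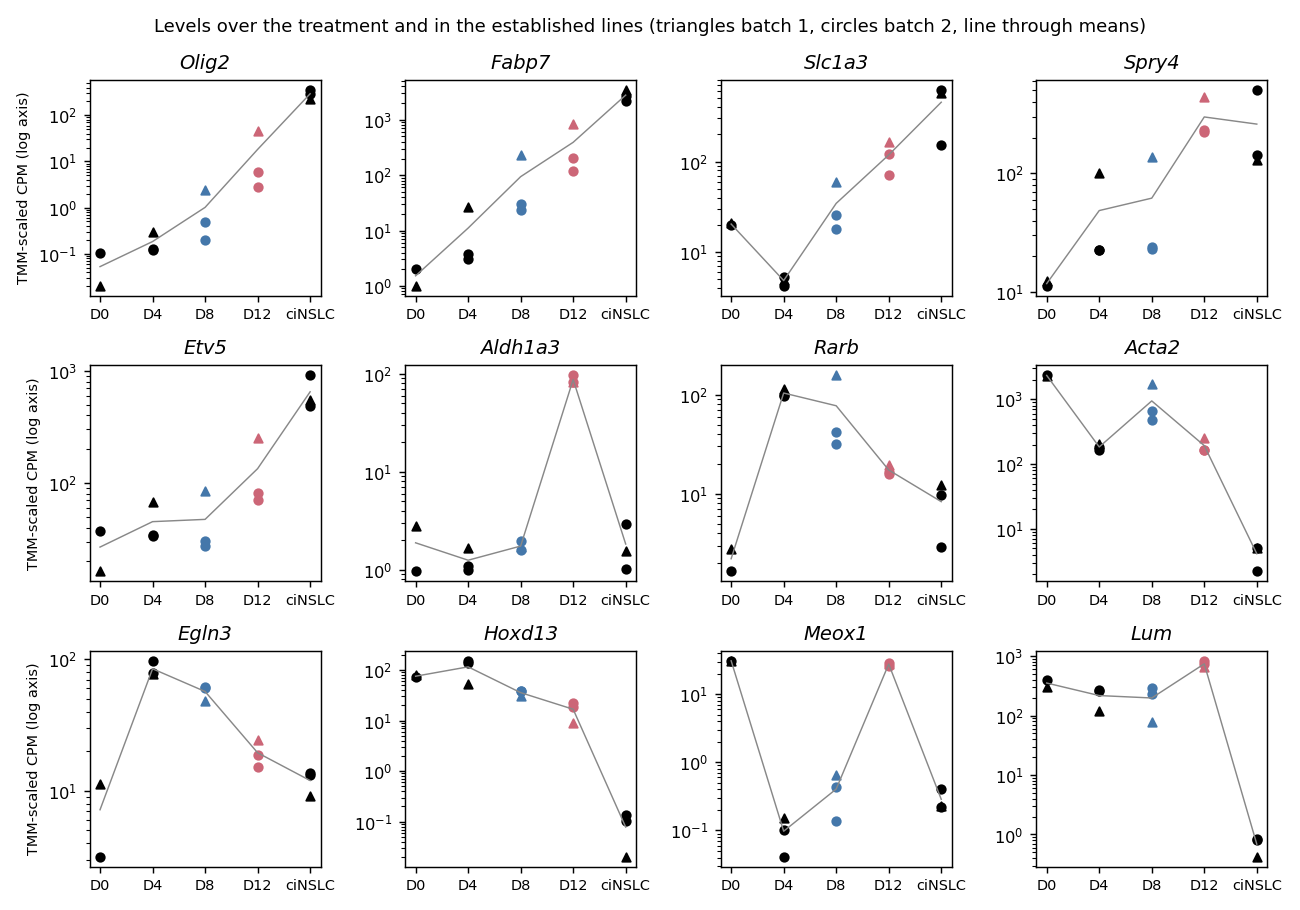
TMM-scaled CPM on a log axis for 12 genes named in the text, by library, in untreated fibroblasts (D0), on days 4, 8 and 12 of treatment and in the established lines (ciNSLC); triangles are batch 1, circles batch 2, the line joins group means and values under 0.02 are drawn at 0.02. Olig2, Fabp7 and Etv5 rise from day 8 to the lines, Aldh1a3 and Meox1 are high on day 12 and low in the lines, and Lum is low in the lines only.

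The established lines and the untreated fibroblasts share no library with D8 and D12. Of 441 genes called higher on D12 and also tested between ciNSLC and D0, 60.8% were higher in ciNSLC, with a median log2 difference of 0.52 (quartiles -1.08 and 3.50). Of 438 genes called lower, 24.4% were higher in ciNSLC, with a median of -1.27 (quartiles -3.71 and -0.06). Over all 14394 genes tested in both, 47.7% were higher, with a median of -0.05. A log2 difference of at least 1 upward was seen in 44.2% of the genes higher on D12, 12.3% of those lower and 15.7% of all. Downward, the shares were 25.4%, 54.6% and 19.4%. Meox1 and Lum were among the genes that rose on D12 and were lower in the lines than in fibroblasts. Leaving out 1 of the 5 libraries moved the median of the higher genes between 0.49 and 0.64 and that of the lower genes between -1.38 and -1.12.

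**Figure D5:**
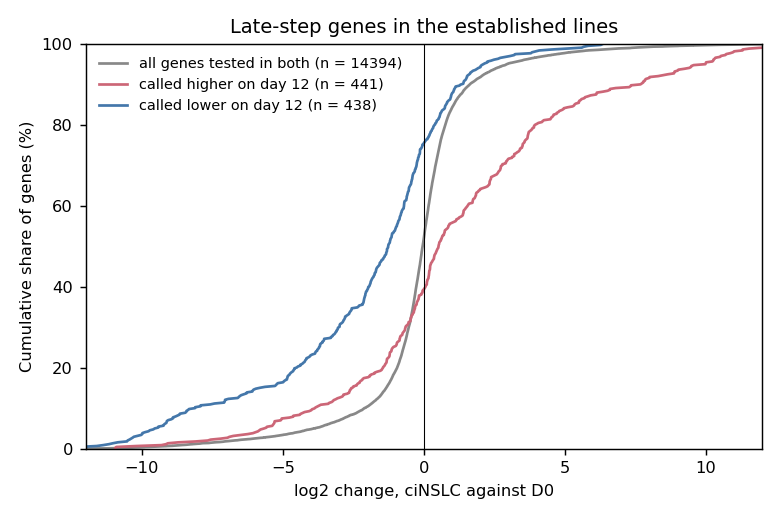
Cumulative share of genes (%) by their log2 difference between the established lines (ciNSLC) and untreated fibroblasts (D0), for all 14394 genes tested in both comparisons (grey), the 441 called higher on day 12 (red) and the 438 called lower (blue). The red curve lies to the right of the grey one above 0 and the blue curve to its left, with medians of 0.52, -1.27 and -0.05 for the red, blue and grey curves.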

How the data were processed

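Per the labels' protocols, RNA was amplified with the Ovation RNA-Seq V2 kit and sequenced as paired reads. The submitters' processing notes name TopHat2 2.0.13, featureCounts, Subread, edgeR and mm9, and whether strand was used is not given in the sources used here. The authors deposited raw counts per gene, which were used for all tests, and per the file headers also CPM and FPKM values, which were used to check the counts and matched them within 0.005. The gene length, in bases without introns per its header and also deposited by the authors in the same table, served that check. Besides these, 16 columns of per-sample values were not used. Genes without a symbol (415 of 37991) stayed in the tests under their Ensembl IDs and took 0.0652% to 0.146% of the counts.

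The D12 against D8 fit was edgeR 4.0.16 in R 4.3.3, with filterByExpr, TMM scaling, robust quasi-likelihood F-tests on batch and day, and Benjamini-Hochberg adjustment over all genes tested. The SE is the absolute log2 change over the square root of F. The common biological coefficient of variation was 0.235 at 3 residual degrees of freedom, and 0.149 at 2 for the batch by day interaction. Printed levels are TMM-scaled CPM from a scaling of all 16 libraries, which differed from that of the 6 by at most 0.013 on the log2 scale. Floors of 3 counts cover counting error only, at 95% confidence. Gene coordinates are as deposited, in mm9, and promoters are from RefSeq.

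Genes named are the 12 called genes with the largest change in each direction that had a mean of at least 5 CPM on the higher day and days apart within both batches, up to 4 called members per direction of each of 36 lists (2 members where none was called), a fixed panel, and 6 genes for each of the other contrasts. The members and lists were chosen with earlier results of these data known. Of 593 list entries 587 were in the table, and the others are not analysed here.

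Same-numbered libraries deviated together (correlations of 0.572, 0.371 and 0.492 over genes), but number 1 is also batch 1, and within batch 2 the correlation was -0.049. Differently numbered batch 2 libraries deviated together as well. The correlation was 0.505 for D8 replicate 3 with D12 replicate 2 and 0.382 for D8 replicate 2 with D12 replicate 3. These values do not show numbers 2 and 3 to be pairs. The replicate number was used as a block only as an alternative to batch. The alternatives tried were other scalings and filters, limma 3.58.1 voom, DESeq2 1.42.0, no batch term, other sets of libraries, leaving out each library, and summing the batch 2 replicates. The D12 against D8 fit with batch as block, the batch by day interaction and the difference between steps were tested on simulated data. The simulated coefficient of variation was below that of the D12 against D8 data. The other fits were not tested in this way. No set test was run. Results for a few list members are not reported here.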

Additional observations from a re-analysis of the deposited data

Results flagged for a closer look

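The change from D8 to D12 differed between the batches at 1377 genes by the interaction test, in which the spread comes from batch 2 alone. As batch 1 minus batch 2 on the log2 scale, the named genes with a lower change in batch 1 were Calcb (-7.70), Sema7a (-7.02), Tfpi2 (-6.05), Olr1 (-5.66), Spp1 (-5.28), Krt18 (-3.48), Dhrs3 (-3.42), Scml4 (-2.83), Stra6 (-2.63), Gpr83 (-2.34), Dusp6 (-2.26), Tslp (-2.03), mt-Nd6 (-1.85), Rarb (-1.83), St8sia1 (-1.73), Spry4 (-1.58), Krt19 (-1.50) and Rec8 (-1.47). Those with a higher change in batch 1 were Sox9 (1.06), Osr1 (1.11), Gas1 (1.40), Lum (1.44), Axin2 (1.56), Ccl11 (1.80), Col1a1 (2.24), Gli1 (2.34), Ngfr (2.76), Lyz2 (2.76), Mki67 (3.25), Marco (4.09) and Col15a1 (6.37).

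The change from D8 to D12 differed from the change from D4 to D8 at 206 genes by the test of that contrast. As late minus early on the log2 scale, the 6 named for it were Madcam1 (-7.53), ORF63 (-7.14), Fam5b (6.83), Syt6 (-5.96), Fmod (-5.52) and Lims2 (-5.31). Both steps contain the D8 libraries.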

How the results depend on the processing

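Of the values for genes, lists and counts recomputed under every alternative, 2095 of the single-gene values kept direction and side of the threshold, 594 lost the threshold, 53 gained it and 35 changed sign, and the cause was not tested. The number of genes changed between D12 and D8 (936) came to 1612 with no filter (745 higher, 867 lower), 1993 with DESeq2 (989 and 1004), 6 with no batch term (6 and 0), 279 in a fit of 14 libraries (149 and 130) and 3476 in batch 2 only (1586 and 1890). With the replicate number as block it was 415 (221 and 194), and with the batch 2 replicates summed, chosen after seeing the data, it was 3 (2 and 1). Leaving out 1 library gave 74 to 3527 (34 to 1687 higher, 40 to 1841 lower). The highest of these counts came without a batch 1 library, where the days are compared within batch 2 only. It stayed within 1.5 times with DESeq2 size factors (933), upper quartile scaling (957), no mitochondrial rRNA (934), a filter at 1 CPM (972), limma voom (1078) and 9 libraries (979), and 662 genes also changed by at least 1 on the log2 scale.

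The count for the batch interaction ranged from 1063 to 5584 without 1 library (573 to 3019 higher, 490 to 2599 lower). The difference between steps came to 11 with no batch term (1 and 10), 88 with the replicate block (13 and 75) and 37 to 1490 without 1 library (3 to 556 and 34 to 934). Medians between ciNSLC and D0 ranged from 0.49 to 0.64 and from -1.38 to -1.12 without 1 library.

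Genes that changed sign were not called in the fit with batch as block. With limma voom Gli1 was at -0.10, Col1a1 at 0.072 and Krt18 at -0.077 (log2). With no batch term Gli1 was at -0.34 and Krt18 at -0.32. In the fit of 9 libraries Mki67 was at 0.30 and Col1a1 at 0.15, and in that of 14 Col1a1 was at 0.063. In batch 2 only Tdrd1 was at 0.26, Pax6 at -0.081 and Gli1 at -0.51. With summed replicates Mki67 was at 0.41, Col1a1 at 0.37 and Krt18 at -0.67. Without 1 library the ranges were -0.69 to 0.28 for Tdrd1, -0.063 to 0.64 for Pax6, -0.49 to 0.54 for Gli1, -0.080 to 0.92 for mt-Nd6, -0.44 to 0.26 for S100a4, -0.022 to 0.50 for Zic1, -0.31 to 0.14 for Tubb3, -0.76 to 0.28 for Col1a1, -0.69 to 1.07 for Krt18 and -1.20 to 0.44 for Mki67. At genes under the floor of 3 counts (0.0587 to 0.0929 CPM) on both days, depth limits what could be seen.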
